A study of Mus musculus with 2 samples.

Results

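The Hox genes described here are the mouse genes whose symbol is Hox, a cluster letter a to d and a paralogue number, which gave 39 of the 32285 genes in the files, and their transcripts were counted in cells of a healing skull defect. The rule used the symbol alone and no measured value. Single-cell RNA sequencing (10x, 3′ tags) was run on cells taken 7 days after a circular defect of 1.8 mm in the frontal bone of male C57BL/6 mice (C57BL/6J in the methods of the study) aged 2 months. The GA group received gambogic amide, a small-molecule agonist of the nerve growth factor receptor TrkA, by intraperitoneal injection of 1.2 mg/kg in 100 µL of 10% DMSO, beginning 24 h before the injury and then daily for 1 week. The control group received the same volume of 10% DMSO (the methods of the study state another dose of GA than the labels). Each group was 1 library pooled from 5 mice, so no comparison between groups or cell classes had a replicate: intervals are exact 95% intervals that cover counting error only, and no p-value is given.

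Hox genes encode homeodomain transcription factors that lie in clusters in the order in which they are switched on along the body axis. The frontal bone and most of the facial skeleton arise from cranial neural crest of the forebrain and midbrain level, which is known for the absence of Hox expression, whereas hindbrain crest, the trunk and the limbs use Hox codes. In bone marrow, Hoxa and Hoxb genes are active in stem and early progenitor cells, where they work with Meis and Pbx cofactors, and are shut off as blood cells mature.

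All 39 members have a homeobox of 180 bases, which lies within 1 exon, the last, in each annotated transcript (GENCODE vM21, GRCm38/mm10). The homeobox of Hoxd8 is shown because this gene held the most Hox transcripts of all and led the mesenchymal cells. It lies in exon 2 of 2 at chr2:74706525-74706704 (plus strand). The capitals mark the 18 bases of codons 48 to 53 of the homeodomain, in the helix that contacts DNA.
Hoxd8: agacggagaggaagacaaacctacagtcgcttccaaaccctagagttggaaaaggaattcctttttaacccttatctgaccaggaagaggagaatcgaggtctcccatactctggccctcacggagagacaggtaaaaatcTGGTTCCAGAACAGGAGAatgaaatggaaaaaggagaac
Among the 39 members 30 different sequences of the 18 capital bases were found. Over all 741 pairs of members a median of 61.1% of the homeobox bases were the same (range 46.1 to 93.9%), with 80.6% between members of the same paralogue number and 60.6% between the others.

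The promoters shown are those of Hoxa9, Hoxb4 and Hoxd8, the leading Hox genes of progenitors, of macrophages and neutrophils, and of mesenchymal cells. They cover the 250 bases before the RefSeq start (GRCm38.p6), at chr6:52227371-52227620 (minus strand), chr11:96318017-96318266 (plus strand) and chr2:74704365-74704614 (plus strand), with each CG in capitals.
Hoxa9 promoter: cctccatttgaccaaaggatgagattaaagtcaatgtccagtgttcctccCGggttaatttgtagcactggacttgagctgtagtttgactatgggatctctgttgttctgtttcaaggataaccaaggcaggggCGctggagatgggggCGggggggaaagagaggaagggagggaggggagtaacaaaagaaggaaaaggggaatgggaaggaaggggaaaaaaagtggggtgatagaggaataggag
Hoxb4 promoter: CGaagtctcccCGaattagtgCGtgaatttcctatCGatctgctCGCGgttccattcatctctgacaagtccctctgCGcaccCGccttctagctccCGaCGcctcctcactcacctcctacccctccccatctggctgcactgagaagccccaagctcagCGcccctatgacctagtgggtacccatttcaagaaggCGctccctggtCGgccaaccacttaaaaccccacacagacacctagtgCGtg
Hoxd8 promoter: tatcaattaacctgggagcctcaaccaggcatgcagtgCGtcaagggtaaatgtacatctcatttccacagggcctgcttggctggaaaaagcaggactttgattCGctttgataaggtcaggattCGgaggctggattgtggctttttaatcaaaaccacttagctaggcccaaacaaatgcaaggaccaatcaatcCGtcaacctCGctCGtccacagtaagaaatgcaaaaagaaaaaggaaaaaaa
Hoxb4 had 14 CG in this window, Hoxd8 6 and Hoxa9 3. The Hoxa9 window lies inside the annotated span of its gene (chr6:52223100-52231089), whereas those of Hoxb4 and Hoxd8 end at the annotated starts. A RefSeq promoter was found for 22 of the 39 members, with a median of 12 CG (range 2 to 35) where the median over 27025 genes was 6. Of these 22 members, 19 were at or above the median of 6 CG, and the share of all promoters at that limit is not given here. At another limit, the members' own median of 12 CG, 33.8% of all promoters were at or above it. The letters TGATNNAT, a form of the joint Hox and Pbx site, were searched on both strands and were found in 3 of the 22 (Hoxa2, Hoxb1 and Hoxb8), a share of 13.6% beside 7.91% of all promoters. None of the 3 printed promoters held them. The Hoxa cluster spans chr6:52155590-52260880 (minus strand, 11 genes), the Hoxb cluster chr11:96194316-96368256 (plus strand, 10 genes), the Hoxc cluster chr15:102921103-103036852 (plus strand, 9 genes) and the Hoxd cluster chr2:74668310-74765142 (plus strand, 9 genes). Several members overlap each other on the same strand: Hoxa3 overlaps Hoxa4, Hoxa5 and Hoxa6, and Hoxd3 overlaps Hoxd4. In the Hoxc cluster, Hoxc5 overlaps Hoxc6, Hoxc8, Hoxc9 and Hoxc10. The counts of these members may be split or shared even where the counting used strand. Some members also overlap an antisense transcript: Hoxd3os1 runs antisense to Hoxd3, Hoxd4 and Hoxd8. Such counts may be split or shared where the counting did not use strand.

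The files held 9322 barcodes for GA and 8718 for control, of which 8380 and 7553 were kept, with medians of 10968.5 and 16299 UMIs (unique molecular identifiers, 1 tag per captured molecule, not scaled by gene length). The libraries shared 23 barcode sequences, 18 of them among kept cells. Cells were clustered without any Hox gene and clusters were named from markers, so a name such as HSC (hematopoietic stem and progenitor cell) or neutrophil means cells with those markers. No marker of a named class was at 0 in its class. Of the 11 HSC markers, 6 were highest in the HSC-like class, as were 5 of 10 mesenchymal, 8 of 8 osteoblast, 10 of 10 neutrophil and 7 of 7 plasmacytoid dendritic markers in theirs. Of the clusters joined as HSC-like, 1 had the megakaryocyte genes Ppbp, Treml1 and Gp9 among its leading genes; its subclusters are given separately. Levels are UMIs per 1000000 UMIs of the class (CPM).

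Hox transcripts made 5910 of the UMIs in kept cells and were found in 1321 of 8380 GA cells (15.8%) and 1227 of 7553 control cells (16.2%). Of the 39 members, 30 had at least 1 UMI, 15 had at least 20, and 9 had none: Hoxa11, Hoxb8, Hoxc11, Hoxc12, Hoxc13 and Hoxd10 to Hoxd13. The Hoxd cluster held 46.1% of the Hox UMIs (2725), all from its 5 members Hoxd1, Hoxd3, Hoxd4, Hoxd8 and Hoxd9. The Hoxb cluster held 29.3% (1733 UMIs, 3 of 10 members with at least 20), and the Hoxa cluster 24.1% (1424 UMIs, 7 of 11 members). The Hoxc cluster held 0.474%, or 28 UMIs over 6 members, none with 20. By position in the clusters, all 12 members of paralogues 1 to 4 were detected, against 10 of 11 of paralogues 5 to 8 and 8 of 16 of paralogues 9 to 13. Paralogues 9 to 13, the posterior end of the clusters, held 11.5% of the UMIs, and nearly all of these came from Hoxa9 (503), Hoxd9 (137) and Hoxa10 (27). Hoxd8 alone held 1944 UMIs (32.9%), Hoxb4 1118 (18.9%), Hoxa7 577 (9.76%) and Hoxa9 503 (8.51%).

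The summed Hox level over both libraries was highest in plasmacytoid dendritic-like cells at 103 CPM (interval 89.5 to 118), followed by HSC-like cells at 49.2 (46.5 to 52.0). The intervals of these classes did not meet each other or that of the next class. Endothelial cells (22.9, 17.9 to 29.0) and mesenchymal cells (22.7, 21.9 to 23.5) came next, and from there down each class had an interval that met its neighbour's: basophils or mast cells at 16.4, B cells at 14.4, T or NK cells at 10.1, macrophages or monocytes at 7.67, dendritic cells at 6.49, erythroid cells at 6.30, neutrophils at 5.29, osteoclasts at 5.27 and plasma cells at 2.80. Osteoblasts had 0 Hox UMIs in 134 cells, which allows up to 0.538 CPM by a limit of 3 counts. The members differed between classes more than the sums did. Hoxa genes made 178 of the 206 Hox UMIs in plasmacytoid dendritic-like cells and 972 of 1245 in HSC-like cells, Hoxd genes made 2613 of 3130 in mesenchymal cells and 61 of 70 in endothelial cells, and Hoxb genes made 481 of 560 in macrophages and 303 of 309 in neutrophils.

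**Figure D1:**
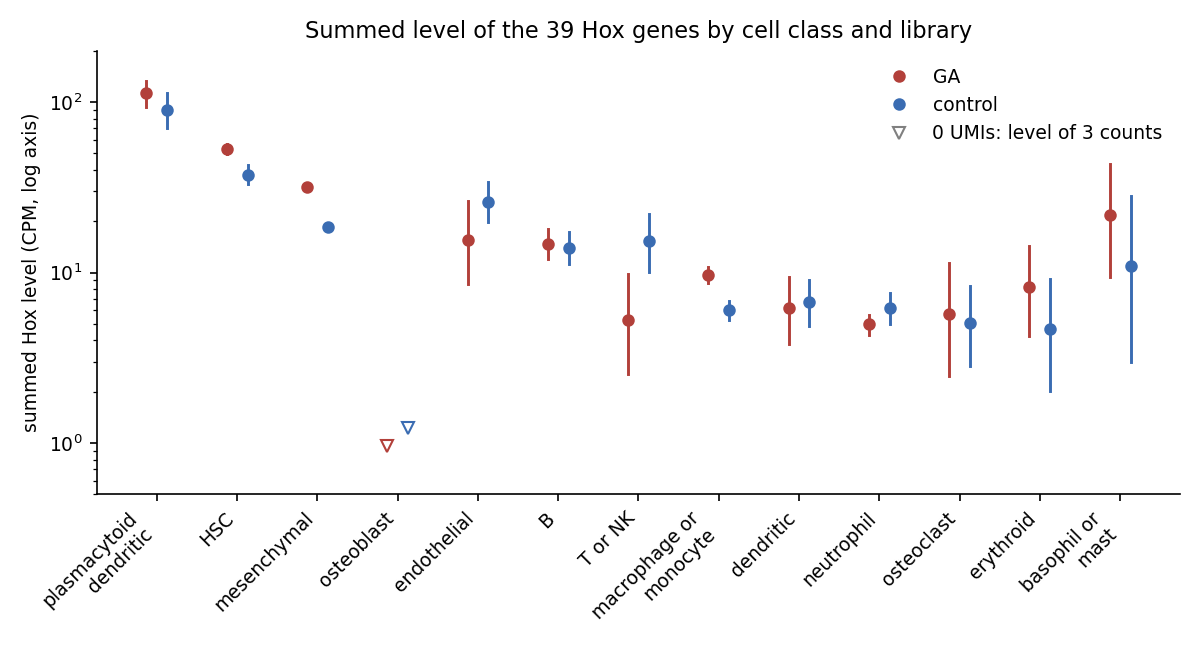
Summed level of the 39 Hox genes (CPM, log axis) in each cell class, GA in red and control in blue, with exact 95% counting intervals as bars; open triangles mark the level of 3 counts where a library had 0 UMIs. Plasmacytoid dendritic-like and HSC-like cells stand highest in both libraries, and osteoblasts had no Hox UMI in either.

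**Figure D2:**
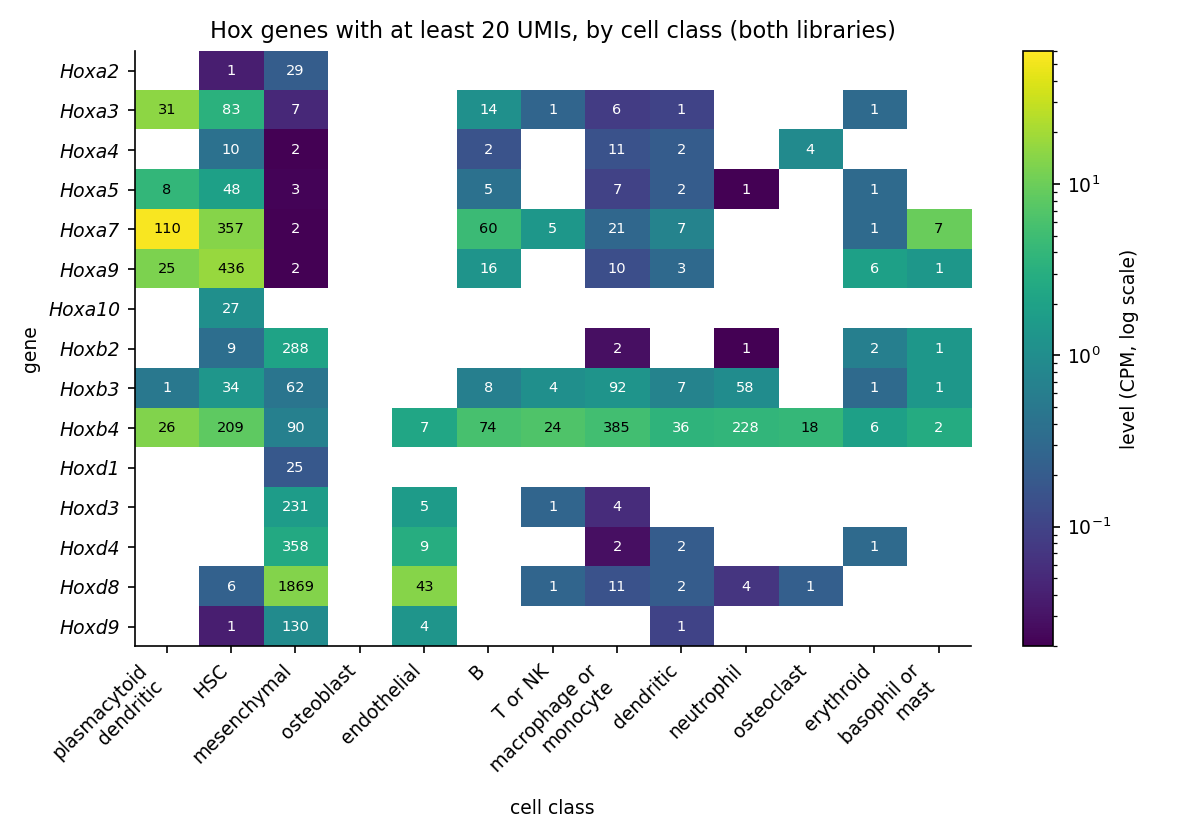
Level of the 15 Hox genes with at least 20 UMIs over both libraries (rows) in 13 cell classes (columns), coloured by CPM on a log scale, with the number of UMIs written in each field and white for none. Hoxa genes lead the HSC and plasmacytoid dendritic columns, Hoxd genes the mesenchymal and endothelial columns, and Hoxb4 is found in every column but osteoblasts. The B column is split between Hoxa genes (55 UMIs in GA and 43 in control) and Hoxb genes (42 and 43).

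Co-detection differed between classes as well. A pair or more of different Hox genes was found in 192 of 610 HSC-like cells (31.5%, 27.8 to 35.3), in 40 of 145 plasmacytoid dendritic-like cells (27.6%) and in 455 of 2592 cells of the mesenchymal lineage (mesenchymal cells and osteoblasts together; 17.6%), and up to 7 members were found in 1 cell. In macrophages this share was 1.24% and in neutrophils 0.108%, or 7 of 6494 cells. These shares rise with depth, which had medians of 40088 UMIs per cell in HSC-like cells, 50938.5 in the mesenchymal lineage and 6458.5 in neutrophils. With each cell thinned to 2000 UMIs, any Hox UMI was found in 16.0% of plasmacytoid dendritic-like cells, 10.1% of HSC-like cells, 3.55% of the mesenchymal lineage, 1.24% of macrophages and 1.07% of neutrophils.

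In HSC-like cells, Hoxa9, a gene needed for the expansion of marrow progenitors, led with 361 UMIs in GA and 75 in control (19.0 and 11.8 CPM), or 35.0% of the Hox UMIs of the class. This class held 86.7% of all Hoxa9 UMIs. Hoxa7 had 304 and 53 UMIs (16.0 and 8.33 CPM). Hoxb4, a gene known for its effect on stem cell self-renewal, had 164 and 45 (8.65 and 7.07 CPM). The remaining members with at least 20 UMIs were Hoxa3 (65 and 18), Hoxa5 (36 and 12), Hoxb3 (23 and 11) and Hoxa10 (18 and 9), and all 27 Hoxa10 UMIs of the series were in this class. Hoxa9 was detected in 28.7% of HSC-like cells, whereas neutrophils, at lower depth, had neither a Hoxa9 nor a Hoxa7 UMI among 58463640 UMIs, which allows up to 0.0513 CPM by 3 counts. Hoxa9 and Hoxa7 were found together in 111 cells, so that 65.7% of the cells with Hoxa7 also had Hoxa9. Cells with Hoxa3 had Hoxa9 in 66.1%, and cells with Hoxb4 in 34.2%. These shares are descriptions, since cells of higher depth show more of every gene. Neutrophil markers, all 10 present, summed to 26363 CPM in HSC-like cells of GA and 29765 in control. HSC markers summed to 21964 and 19405 in these cells, and neutrophil markers to 336427 and 311073 in neutrophils. The part of neutrophil markers in the Hox levels was not tested.

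Within HSC-like cells the Hox level followed the subcluster. The lymphoid progenitor subcluster, led by Dntt, Tox and Flt3, had the highest level at 149.5 CPM and held 41.8% of the Hox UMIs of the class (520 of 1245) in 93 cells. Early progenitors, led by genes such as Procr and Hmga2, had 115 CPM in 22 cells, and megakaryocyte-erythroid progenitors had 67.6 CPM in 38 cells. The 3 monocyte-dendritic subclusters had 54.0, 29.3 and 21.4 CPM, and the 3 granulocyte-monocyte subclusters 46.6, 13.4 and 8.20. An unnamed subcluster led by the granule genes Camp, Ngp and Ltf had 6.31 CPM, and an unnamed one led by Ppbp had 11.8 CPM at a median of 1838 UMIs per cell. Hoxa9 ranged from 0 to 62.7 CPM over the subclusters and Hoxb4 from 1.97 to 12.6.

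**Figure D3:**
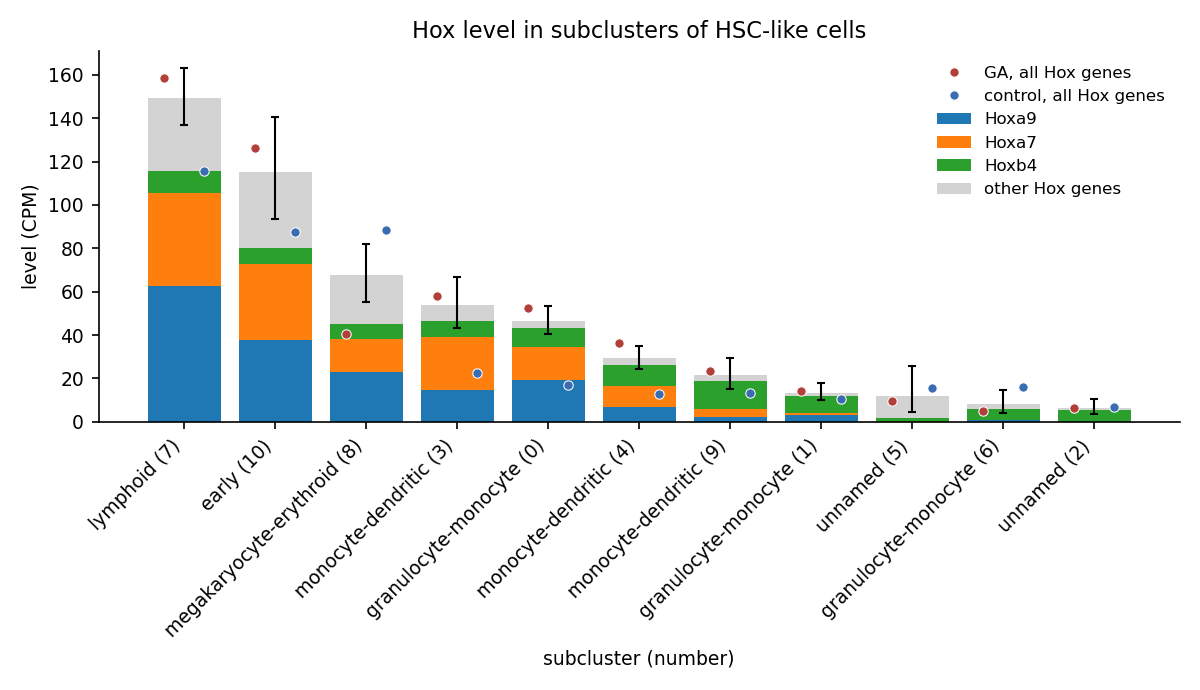
Hox level (CPM) in the subclusters of HSC-like cells, as stacked bars of Hoxa9, Hoxa7, Hoxb4 and the other members over both libraries, with the 95% counting interval of the sum and a point for each library. The lymphoid and early progenitor subclusters stand highest, at 149.5 and 115 CPM, and the subclusters led by granule genes lowest.

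Plasmacytoid dendritic-like cells, marked by Siglech and Ccr9, were led by Hoxa7, with 69 UMIs in GA and 41 in control (59.2 and 49.2 CPM), or 53.4% of their Hox UMIs. The Hoxa7 level over both libraries, 55.1 CPM (45.2 to 66.4), lay above that in HSC-like cells, 14.1 (12.7 to 15.6), whereas Hoxa9 was at 12.5 (8.10 to 18.5) against 17.2 (15.6 to 18.9), with intervals that met. Hoxa3 followed at 21 and 10 UMIs, Hoxb4 at 18 and 8, and Hoxa9 at 17 and 8. Hoxa7 thus stood above Hoxa9 in these cells, with intervals that did not meet. In HSC-like cells as a whole Hoxa9 stood above Hoxa7, with intervals that came together at 15.6 CPM. Other cells also had more Hoxa7 than Hoxa9: B cells (60 and 16 UMIs), macrophages (21 and 10) and monocyte-dendritic progenitors of GA (80 and 50). Monocyte-dendritic progenitors of control had 5 UMIs of each. Lymphoid progenitors had the other order, with 125 Hoxa7 and 181 Hoxa9 UMIs in GA and 24 and 37 in control. Their Hoxa7 level was 45.4 CPM in GA and 33.1 in control. B cells had Hoxa7 at 60 UMIs and Hoxb4 at 74 over both libraries, and their Hox level was not even: a cluster led by Vpreb1, Igll1 and Dntt, genes of early B cells, had 22.6 CPM (18.6 to 27.3), and a cluster led by Ms4a1 and Ighd, genes of mature B cells, had 10.8 (6.30 to 17.3). Markers of HSC-like cells summed to 651 and 286 CPM in plasmacytoid dendritic-like cells of GA and control (11 and 8 of 11 present). Those of mesenchymal cells summed to 1668 and 1958 (8 of 10 present in each, with Prrx1 at 0 in GA and Pdgfra at 0 in control). The part of these in the Hox levels was not tested.

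In the mesenchymal lineage, 2592 cells held 3130 Hox UMIs, and Hoxd8 made 59.7% of them. Hoxd8 had 804 UMIs in GA and 1065 in control (17.1 and 11.03 CPM) and was found in 42.7% of GA and 30.9% of control cells, at median depths of 50355 and 51036 UMIs. In neutrophils, at 6458.5 UMIs, it was found in 4 of 6494 cells (0.0616%). Its neighbours followed: Hoxd4 had 164 and 194 UMIs, Hoxd3 103 and 128, Hoxd9 65 and 65, and Hoxd1 9 and 16. Hoxb2, an anterior gene, had 138 and 150 UMIs, Hoxb4 51 and 39, Hoxb3 27 and 35, and Hoxa2, a gene that patterns crest of the second pharyngeal arch, 16 and 13. The lineage held between 94.3 and 100% of all UMIs of Hoxa2, Hoxb2, Hoxd1, Hoxd3, Hoxd4, Hoxd8 and Hoxd9, but 8.05% of those of Hoxb4. Hoxa7 and Hoxa9 had 2 UMIs each in these cells. Cells with Hoxd4, Hoxd3, Hoxb2 or Hoxd9 had Hoxd8 in 69.8, 75.0, 72.3 and 67.5%, beside 34.8% of all cells of the lineage. Cells with Hoxb4 had Hoxb2 in 71.2%, beside 3.90% of all.

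The Hox UMIs of this lineage lay in part of its subclusters. The subsets carry the names used in the study. The markers that named them here also held Foxc1, which the text of the study does not name, so the subsets need not hold the same cells. Stem 1 cells (Mki67, Ube2c, Loxl2) had 48.1 CPM in GA and 37.7 in control and held 53.9% of the Hox UMIs of the lineage, and 82.9% of these cells had at least 1. Stem 2 cells (Clec3b, Dpt, Col14a1) had 29.2 and 23.6 CPM and held 32.9%, in 62.2% of their cells. Multilineage progenitors (Scx, Fmod) had 10 UMIs, or 0.471 CPM. Fibroblastic progenitors (Eln, Foxc1, Foxd1), with 407 cells and 17636535 UMIs, had 3 Hox UMIs (0.170 CPM, 0.0351 to 0.497), and osteoblasts had none in 131 cells. The levels of Stem 1 and Stem 2 cells were thus far above those of the other named subsets in both libraries. Stem 2 cells, multilineage and fibroblastic progenitors and osteoblasts had median depths of 40115 to 46568 UMIs, and Stem 1 cells 77946.5. Hoxb2 was narrower than Hoxd8: 164 and 67 of its 288 UMIs were in the 2 Stem 1 subclusters, at 5.82 and 5.44 CPM, against 0.0802 to 0.768 in the Stem 2 subclusters. A subcluster that stayed unnamed, led by hemoglobin genes, had 22.2 CPM, and another, led by S100a8 and S100a9 in 27 cells, had 18.7. Neutrophil markers, all 10 present, summed to 1958 CPM in the mesenchymal lineage of GA and 263 in control. Their part in the Hox levels was not tested.

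**Figure D4:**
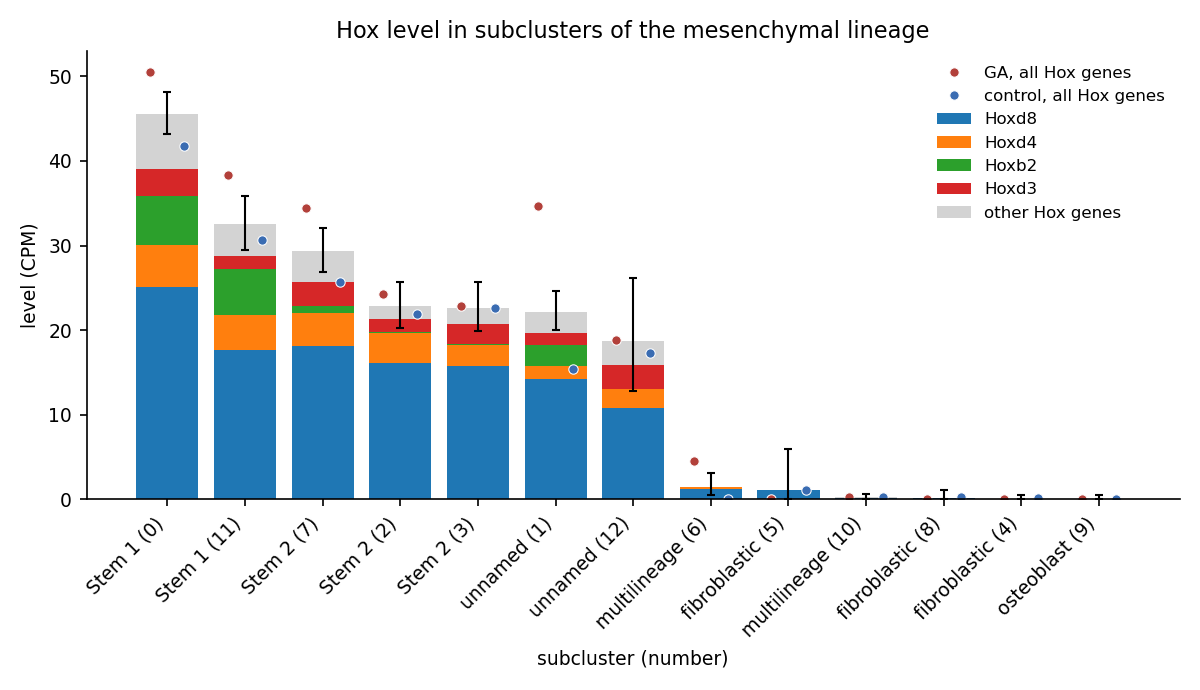
Hox level (CPM) in the subclusters of the mesenchymal lineage, as stacked bars of Hoxd8, Hoxd4, Hoxb2, Hoxd3 and the other members over both libraries, with the 95% counting interval of the sum and a point for each library. Stem 1 and Stem 2 subclusters carry 22.6 to 45.6 CPM, and multilineage, fibroblastic and osteoblast subclusters carry 0 to 1.43.

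Transcription factors of the cranial skeleton were followed as a list of 22, of which 21 had at least 20 UMIs in the lineage. By level, 15 of the 21 were higher in fibroblastic progenitors than in both Stem 1 and Stem 2 cells, 4 (Barx1, Dlx3, Dlx6 and Prrx1) were lower than in both, and 2 lay between; without Foxc1 and Foxc2, which also served to name fibroblastic progenitors, 13 of 19 were higher. This count was made after the values had been seen, and the share over all genes was not computed beside it. Apart from Tfap2b, Prrx1, Twist1 and Prrx2, the examples that follow were chosen after their values had been seen. Each example so chosen was higher in fibroblastic progenitors or osteoblasts than in Stem 1 and Stem 2 cells. Values of Barx1, Dlx3 and Dlx6, which were lower in fibroblastic progenitors, are not given here. Unlike the Hox genes, the factors of this list could enter the clustering. Tfap2b, a factor of neural crest, was at 32.5 CPM in fibroblastic progenitors, against 0.296 in Stem 1 and 0.124 in Stem 2 cells. Msx1, which acts in skull growth, was at 116 against 9.16 and 5.76, and Zic1 at 130 against 26.5 and 33.9. Six2 was at 49.3 against 6.32 and 4.57, and Alx4 at 22.6 against 1.01 and 0.422. Dlx5, a factor of bone formation, was at 24.2 in osteoblasts against 0.370 and 0.124. Prrx1, a general mesenchymal factor and the most abundant of the list with 568 CPM in the lineage, was higher in Stem 1 cells (715 CPM) and was at 556 in Stem 2 cells and 392 in fibroblastic progenitors. Twist1 was at 133 CPM in the lineage, with 119 in Stem 1, 125 in Stem 2 and 150.5 in fibroblastic progenitors, and Prrx2 was at 100 in the lineage. The place of origin of the subsets was not measured.

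Noncoding transcripts of the clusters were followed beside the coding genes. Of 10 listed, 4 had at least 20 UMIs in the mesenchymal lineage. Hoxd3os1, antisense to Hoxd3, Hoxd4 and Hoxd8, had 478 UMIs in GA and 744 in control (8.52 CPM over both), Hotairm1 was at 1.62 CPM and Hoxb3os at 0.571. Halr1 had 4 and 49 UMIs, and 40 of these 53 were in fibroblastic progenitors, the subset almost free of Hox transcripts. In macrophages Hotairm1 had 130 and 153 UMIs (3.87 CPM). In HSC-like cells Hotairm1 had 44 and 7 UMIs and Hoxaas3 40 and 9.

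Hoxb4 differed from the other members in being spread over nearly all classes. Its level was 13.01 CPM in plasmacytoid dendritic-like cells, 8.25 in HSC-like, 6.56 in T or NK, 5.83 in B, 5.27 in macrophages, 4.12 in osteoclasts, 3.90 in neutrophils and 3.65 in dendritic cells, and each of these intervals met that of its neighbour. It fell to 0.653 in mesenchymal cells and 0 in osteoblasts. Macrophages held the largest share of its 1118 UMIs (385, 34.4%), then neutrophils (228, 20.4%) and HSC-like cells (209, 18.7%). In macrophages 327 cells held it and no cell more than 4 UMIs, and in neutrophils 211 cells and no more than 2. Hoxb3 was lower, at 1.34 CPM in HSC-like cells, 1.26 in macrophages and 0.992 in neutrophils, with 1 UMI in plasmacytoid dendritic-like cells and none in osteoclasts or endothelial cells. Hoxb1 had 13 UMIs in all, 12 of them in neutrophils. The 3 macrophage clusters had Hox levels of 12.5, 6.11 and 5.51 CPM, the highest being the cluster led by Ccr2 and F13a1, genes of recruited monocytes. Macrophages with a Hox UMI (443 cells) had more Mpo than those without, 121 against 21.2 CPM, and Ctsg, Prtn3, Elane and Ms4a3, genes of granulocyte-monocyte progenitors, were among their 10 leading genes. Neutrophils with a Hox UMI (279 cells) were led by Ly6d, 7.62 against 0.459 CPM, and Irf8 was among the 10. Siglech, Ccr9 and Pacsin1, markers of plasmacytoid dendritic cells, were also among them, with Siglech at 4.57 against 0.0734 CPM. The part of such cells in the Hox level of neutrophils was not tested. These are descriptions of cells that also differed in depth. HSC markers, all 11 present, summed to 988 CPM in GA macrophages and 269 in control macrophages. Their part in the Hox levels was not tested.

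Endothelial cells, 95 in all, had the same leading member as mesenchymal cells. Hoxd8 had 6 UMIs in GA and 37 in control, or 14.1 CPM over both (10.2 to 19.0), beside 13.6 (12.9 to 14.2) in mesenchymal cells. The libraries differed in this: endothelial cells were at 6.67 CPM (2.45 to 14.5) beside 18.3 (17.1 to 19.6) in mesenchymal cells in GA, and at 17.2 (12.1 to 23.7) beside 11.3 (10.7 to 12.0) in control. Hoxd4 had 9 UMIs, Hoxb4 7 and Hoxd3 5. The 43 Hoxd8 UMIs lay in 20 cells, and 5 of these held 24. Mesenchymal markers summed to 1148 CPM in GA and 794 in control endothelial cells, beside 74156 and 68554 in mesenchymal cells themselves, and all 10 were present. Their part in the Hoxd8 level was not tested.

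GA and control were compared within each class by the log2 ratio of CPM. In the mesenchymal lineage the summed Hox level was 29.7 CPM (28.2 to 31.3) in GA and 17.95 (17.1 to 18.8) in control, a log2 ratio of 0.73 (0.62 to 0.83). All 9 members with at least 20 UMIs were higher in GA, where 46.9% of all genes with as many UMIs were, and 3 had a log2 ratio above 1, where 4.01% of all genes had. The members were chosen by name, with earlier results of these data known, and their median ratio was 0.80, beside −0.02 over all genes. They were often found in the same cells, so their ratios were not independent of each other. Hoxd8 had a ratio of 0.63 (0.50 to 0.77), Hoxd4 0.80 (0.49 to 1.10), Hoxb2 0.92 (0.57 to 1.26), Hoxd3 0.72 (0.34 to 1.11), Hoxd9 1.04 (0.52 to 1.56), Hoxb4 1.43 (0.80 to 2.07) and Hoxa2 1.34 (0.19 to 2.51). The intervals of Hoxb3 and Hoxd1 held 0.

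The makeup of the lineage moved with this difference. Stem 1 cells were 25.2% of the lineage in GA and 17.5% in control, Stem 2 cells 35.0 and 29.6%, and fibroblastic progenitors, nearly free of Hox transcripts, 5.32 and 20.9%. With the makeup of subclusters held the same in both libraries, the log2 ratio was 0.39 (25.5 and 19.5 CPM). Within Stem 1 cells it was 0.35 (0.21 to 0.49) and within Stem 2 cells 0.31 (0.12 to 0.49), where 2 of the 3 subclusters had 0.15 and 0.02 with intervals that held 0. The unnamed subset had 1.02 (0.73 to 1.31; 231 and 171 UMIs), and its subcluster led by hemoglobin genes 1.17 (0.87 to 1.47). Hoxd8 had 0.25 (0.06 to 0.44) within Stem 1 and 0.24 within Stem 2 cells. With 1 library in each group, the treatment cannot be told apart from the library or from the mice pooled into it.

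**Figure D5:**
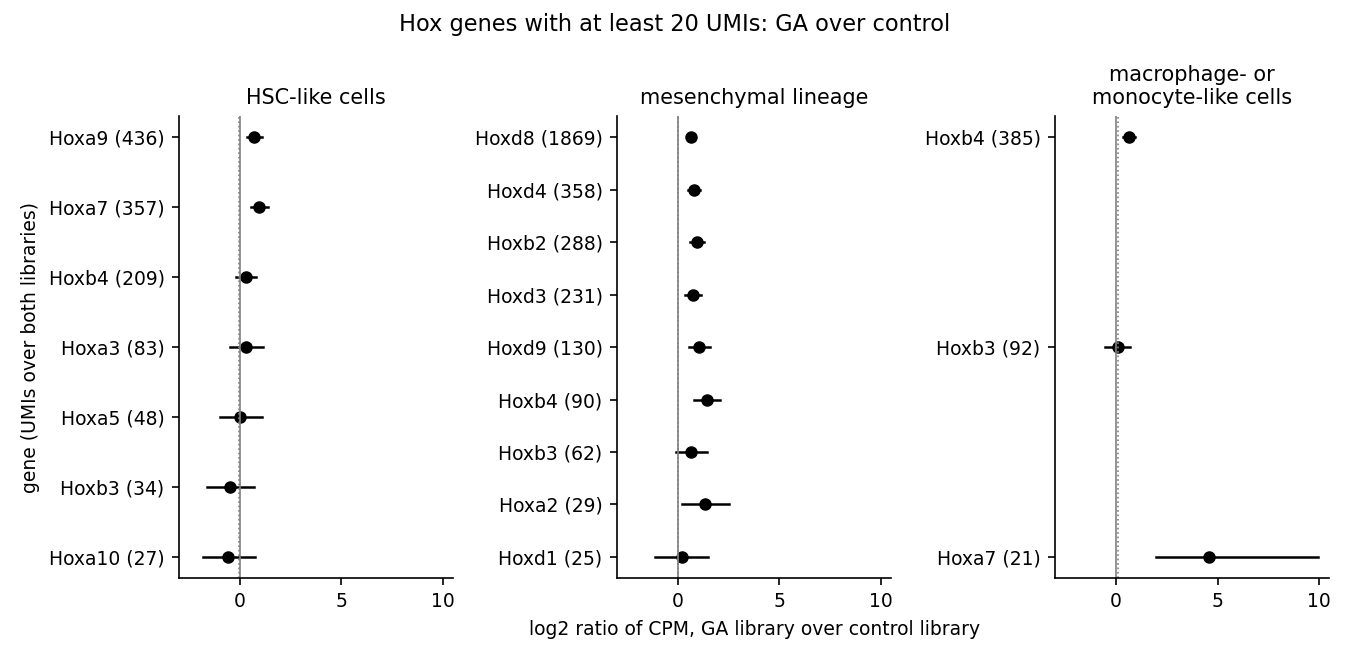
Log2 ratio of CPM, GA over control, of each Hox gene with at least 20 UMIs in HSC-like cells, the mesenchymal lineage and macrophages or monocytes, with exact 95% counting intervals; UMIs over both libraries stand in brackets, the solid line marks 0 and the dotted line the median of all genes of the class. All 9 genes of the mesenchymal lineage lie above 0, and in HSC-like cells only the intervals of Hoxa7 and Hoxa9 do so.

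In HSC-like cells the summed level was 53.04 CPM (49.8 to 56.4) in 417 GA cells and 37.6 (33.0 to 42.7) in 193 control cells, a log2 ratio of 0.50 (0.29 to 0.71). Of 7 members, 5 were higher in GA, where 42.3% of all genes were, and none was beyond 1 in either direction, where 7.9% of all genes were. Hoxa7 had 0.94 (0.52 to 1.39) and Hoxa9 0.69 (0.33 to 1.07). Hoxb4 had 0.29 (−0.19 to 0.80) and Hoxa3 0.28, Hoxa5 0.01, Hoxb3 −0.51 and Hoxa10 −0.58, all with intervals that held 0. Depth differed, with medians of 44773 UMIs per cell in GA and 33802 in control. When each cell was thinned to 2000 UMIs, the levels were 56.8 and 69.8 CPM and the log2 ratio turned to −0.30, with 9.85 and 10.6% of cells holding a Hox UMI; in thinning every cell counts alike, and few Hox UMIs remain. With cells weighted alike but not thinned the ratio was 0.53. With the makeup of subclusters held the same the ratio was 0.57. It was not alike over the subsets: granulocyte-monocyte progenitors had 1.20 (0.63 to 1.82) and monocyte-dendritic progenitors 1.49 (0.88 to 2.16), lymphoid progenitors 0.45 (0.11 to 0.81), and megakaryocyte-erythroid progenitors, with 17 and 21 cells, −1.12 (−1.81 to −0.47). In granulocyte-monocyte progenitors Hoxa9 had 93 UMIs in GA and 3 in control, a ratio of 3.09 (1.498 to 5.39), and Hoxa7 67 and 3, a ratio of 2.62. The subcluster of this subset highest in Hox held 57 of its 147 cells in GA and 18 of 59 in control, and within it the ratio of Hoxa9 was 2.396 (0.80 to 4.70; 81 and 3 UMIs). Hoxb4 had 55 and 17 UMIs in the whole subset, a ratio of −0.17. In that subcluster it had 34 and 3, a ratio of 1.14 (−0.53 to 3.49). In monocyte-dendritic progenitors Hoxa7 had 80 and 5 UMIs and Hoxa9 50 and 5.

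The other classes had fewer Hox UMIs. In macrophages all 3 members with at least 20 UMIs were higher in GA, where 60.1% of all genes were, and 1 was above 1, where 6.76% of all genes were. That 1 was Hoxa7, with 20 UMIs in GA and 1 in control (4.599, 1.96 to 9.97). Hoxa9 had 10 and 0. Hoxb4 had 217 and 168 UMIs (0.65, 0.35 to 0.95), and Hoxb3 0.09. In plasmacytoid dendritic-like cells all 4 members were higher in GA, where 56.6% of all genes were, with every interval holding 0 and none beyond 1, where 9.1% of all genes were. In neutrophils, B cells and dendritic cells, the members (2, 2 and 1) were all lower in GA, where 26.2, 48.6 and 54.4% of all genes were higher, and none was beyond 1, where 6.04, 2.33 and 5.81% of all genes were. Neutrophils had Hoxb4 at 160 and 68 UMIs, a ratio of −0.21. In T or NK cells the only member with 20 UMIs, Hoxb4 (8 and 16), had −1.09 (−2.52 to 0.22), below −1 where 2.67% of all genes were. Over all kept cells 11 of 15 members were higher in GA (41.3% of all genes) and 6 above 1 (4.13%), a comparison in which the makeup of the libraries enters, since HSC-like cells were 417 of 8380 in GA and 193 of 7553 in control.

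Cofactors and regulators of Hox genes were followed as lists, described by counts and medians. The TALE-class cofactors are proteins of the Pbx and Meis families that bind DNA beside Hox proteins. In HSC-like cells 6 of 9 had at least 20 UMIs, and 1 of them was higher in GA, where 42.3% of all genes were. Their median ratio was −0.27 beside −0.07 over all genes. Meis1 was at 91.0 CPM there (ratio −0.46) and Pbx2 at 28.5. In the mesenchymal lineage 7 of 9 were higher in GA, where 46.9% of all genes were (median 0.20 beside −0.02). Meis2 was at 76.1 CPM and Pbx3 at 73.1 in this lineage. A further list held 11 genes known with Hoxa9 in marrow progenitors, among them the receptor genes Kit and Flt3. Of these 11, 4 were higher in GA in HSC-like cells, where 42.3% of all genes were. Myb was at 171 CPM (0.24) and Erg at 82.2. Gata2 (−1.16) and Mycn (−2.76) were below −1, where 6.37% of all genes were. In macrophages all 7 measured were higher in GA, where 60.1% of all genes were, and 5 were above 1, where 6.76% of all genes were: Myb 2.61, Kit 2.60, Erg 1.94, Meis1 1.42 and Flt3 1.05. Of the TALE-class cofactors 8 were measured in macrophages and 6 were higher in GA, where 60.1% of all genes were (median 0.27 beside 0.10). Among them 2 were above 1, where 6.76% of all genes were. Meis3 was below −1 at −1.06, and the share of all genes below −1 in macrophages is not given here. The genes listed with Hoxa9, and Hoxa7 and Hoxa9 with their few UMIs in GA macrophages, are also expressed in HSC-like cells. Kit is itself among the HSC markers. The part of HSC-like cells in the macrophage levels was not tested.

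Activators that hold Hox genes open (the Mll complex, Dot1l and partners) and Polycomb repressors that close them were followed as well. Of the activators, 12 of 15 had at least 20 UMIs in HSC-like cells, 4 of them higher in GA where 42.3% of all genes were, led by Mllt10 at 137 CPM, Psip1 at 98.9 and Aff4 at 74.8. In the mesenchymal lineage 2 of 12 were higher, where 46.9% of all genes were, led by Aff4 at 145.5. Their median ratios were −0.04 and −0.11. All 15 Polycomb genes were measured in both. In HSC-like cells 5 were higher in GA, where 42.3% of all genes were. Cbx2 (22 and 15 UMIs) was at −1.02, below −1 where 6.37% of all genes were. The list was led in HSC-like cells by Ezh2 at 162 CPM, Suz12 at 127 and Mtf2 at 104. In the mesenchymal lineage 7 were higher in GA, where 46.9% of all genes were, and the list was led by Jarid2 at 139. The median ratios of the Polycomb genes were −0.08 in HSC-like cells and −0.01 in the mesenchymal lineage, beside −0.07 and −0.02 over all genes. Of the cranial factors 5 of 21 were higher in GA in the mesenchymal lineage, where 46.9% of all genes were (median −0.41). Foxc1 (−1.06), Foxc2 (−1.40) and Tfap2b (−1.42) were below −1, where 4.03% of all genes were. Fibroblastic progenitors, which Foxc1 and Foxc2 also served to name, were fewer in GA. The part of this makeup in the ratios of these genes was not tested. Of the other homeobox genes related to the clusters, Meox2 was at 15.9 CPM (0.64) and Meox1 at 3.91 (−0.61) in the mesenchymal lineage, and no other reached 20 UMIs in it.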

How the data were processed

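The authors deposited UMI counts per gene and cell barcode for each of 2 libraries, made per the labels with Cell Ranger 7.0.1 and the mouse genome mm10 (the methods of the study name another version). Whether intronic reads were counted, and on which strand, is not given in the sources used here. Barcodes with 500 to 140000 UMIs, 200 to 9500 genes and at most 15% mitochondrial UMIs were retained. Scrublet's own threshold marked 0 cells in GA and 39 in control, so barcodes of highest score were removed at 0.8% per 1000 barcodes (656 and 540). Pearson residuals of 2000 variable genes, Hox genes left out, gave 50 principal components, which went through Harmony, 15 neighbours and Leiden clustering at resolution 1 (scanpy 1.11.5, SciPy 1.17.1). Clusters were named by marker lists, with thresholds set after the data had been seen: 3 markers with a UMI in at least 10% of cells and 2 times the median of the other clusters.

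Intervals at 95% are exact Poisson (levels), Clopper-Pearson (shares) and conditional binomial (ratios), and a count of 0 is limited by 3 counts. Ratios were taken for genes with at least 20 UMIs in a class over both libraries (with 0.5 added to the counts for shares and medians over all genes). This is also the rule for naming a Hox gene with its values, but counts of some members below it are given too. Recovery of known ratios was checked on simulated Poisson counts. These held neither clumping of UMIs in cells nor spread between libraries, so the check bears on the calculation alone. Of the 7 gene lists, the rule was to name the 3 genes of highest level in a class and those with a log2 ratio beyond 1. Some cranial factors are named outside this rule, as stated with their values. Genes leading cells with Hox UMIs are the 10 of highest fold. Some genes and sequences are not reported here. The members and lists were chosen with earlier results of these data known. Kept cells held 160570724 UMIs in GA and 183666732 in control. With 1 library per group no test could be made, and 18 alternatives in the processing were recomputed.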

Additional observations from a re-analysis of the deposited data

Results flagged for a closer look

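The log2 ratio of the summed Hox level, GA over control, had opposite directions in different classes: 0.73 in the mesenchymal lineage, 0.68 in macrophages and 0.50 in HSC-like cells, but −1.52 (−2.74 to −0.43) in T or NK cells, where it rested on 10 UMIs in 192 GA cells and 27 in 223 control cells. The difference between the classes was not tested, since each group was 1 library.

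Barcodes that were not used also held Hox transcripts. Those removed for their doublet score had 21.7 CPM in GA (379 UMIs, 656 barcodes) and 18.8 in control (430 UMIs, 540 barcodes). Those outside the limits on depth, genes or mitochondrial share had 30.6 CPM in GA (150 UMIs, 286 barcodes) and 22.8 in control (194 UMIs, 625 barcodes). These levels were drawn to attention because the barcodes lie outside the comparisons; the kept cells had 20.3 CPM in GA and 14.4 in control.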

How the results depend on the processing

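Over the alternatives, the log2 ratio in the mesenchymal lineage ranged from 0.39 to 1.09, in HSC-like cells from −0.30 to 0.57, in plasmacytoid dendritic-like cells from 0.00 to 0.49 and in macrophages from 0.49 to 0.76. The ratio in HSC-like cells turned to −0.30 when cells were thinned to 2000 UMIs, with levels of 56.8 CPM in GA and 69.8 in control. Without removal of doublets it was 0.20, with 46.7 in control. The HSC-like level was 59.6 in GA and 47.8 in control without Harmony, 56.9 and 42.9 with 3000 variable genes, 59.97 and 47.1 with at least 2000 UMIs per cell, and 40.7 and 31.3 with each cell named by its own score. In GA it was 49.4 with at most 10% mitochondrial UMIs and 57.7 with cells weighted equally. In the mesenchymal lineage equal weights gave 27.4 and 15.2 with a ratio of 0.85, thinning gave 13.3 in control and a ratio of 1.09, and a fixed makeup of subclusters, an alternative added after the data had been seen, gave 0.39. In macrophages the GA level was 8.55 without Harmony, 8.45 with log1p counts and with each cell's own score, 8.18 with 3000 variable genes and 7.66 when thinned, with 5.12 in control. The number of members detected fell when thinned to 1 in HSC-like cells, the mesenchymal lineage and macrophages and to 0 in plasmacytoid dendritic-like cells; a minimum of 5 UMIs gave 11 in HSC-like cells and 9 in macrophages, and one of 50 UMIs gave 4 in HSC-like cells and 1 in plasmacytoid dendritic-like cells. In all, 215 values moved by less than their counting interval, or by under 1.5 times for counts of members, 34 moved by more and 1 turned direction. The causes were not tested. No paired analysis was possible because each group was 1 library. Depth limits the Hox genes under 20 UMIs, for which no ratio was read.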
